A study of Homo sapiens with 8 samples.

Results

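The genes of 10 cytosolic glycolytic enzymes (GPI, ALDOA, TPI1, GAPDH, PGK1, PGAM1, ENO1, PKM, LDHA and LDHB) were followed through selective ribosome profiling of the chaperonin TRiC and its partner prefoldin (PFD). The genes were chosen by name as abundant glycolytic enzymes, and all 10 were found among the 60664 gene identifiers of both count tables. Ribosome-protected fragments (RPFs), the stretches of mRNA shielded by a ribosome, were sequenced from the human osteosarcoma line U-2 OS. The cells carried a HaloTag either in TRiC subunit CCT4 (genotype CCT4-Halo, the TRiC line) or on prefoldin subunit 4 (genotype PFDN4-Halo, the PFD line), each knocked into the endogenous gene and grown from a sorted single clone. All cells received cycloheximide (100 µg ml−1, 1 min) and were then crosslinked with DSP (2 mM, 30 min). In each line the RPFs of the total ribosome pellet (input) were set beside those recovered on anti-HaloTag beads (pulldown), with 2 biological replicates in each of the 4 groups.

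Glycolysis converts glucose to pyruvate in the cytosol and yields ATP without oxygen, and lactate dehydrogenase then turns pyruvate into lactate while restoring NAD+. Proliferating tumour cells are known for a high rate of this pathway, and its enzymes are among the most abundant proteins of the cytosol. TRiC is a ring-shaped chaperonin that encloses actin, tubulin and other clients to let them fold, and prefoldin is a jellyfish-shaped holdase that hands clients to it. Glycolytic enzymes are mostly soluble proteins that assemble into dimers or tetramers. The comparison asks whether ribosomes translating these enzymes took a larger or smaller share of the chaperone-bound RPFs than of all RPFs.

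The libraries held between 9523128 and 32637658 counts. A pair of PFD libraries was the shallowest, and the replicates of the PFD line differed more than those of the TRiC line (edgeR common dispersion 0.331 against 0.0153). Of 6 bone-lineage genes, COL1A1 (2903 to 5408 CPM) and RUNX2 (29.2 to 64.4 CPM) were translated in every library, ALPL had 62 to 811 counts, and SP7, BGLAP and COL1A2 had at most 8, 24 and 66 counts in any library.

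Many of these genes have processed pseudogenes, copies of the mRNA inserted elsewhere in the genome, and only reads with a unique alignment were counted. Every 30-base window of each coding sequence was therefore searched for exact copies elsewhere in hg38, on either strand. The stretches below show how far this goes. Each is the most copied window of its gene among those without a copy on chromosomes 8 and 18, and no letters are in capitals, since no base within a window is singled out. PGAM1, GAPDH, LDHA and TPI1 have the most copied coding sequences, and GPI, whose first coding window is given for contrast, has no copied window.
PGAM1, coding bases 599 to 628, 9 copies elsewhere: tctctgaagaggctatcatggagctgaacc
GAPDH, coding bases 351 to 380, 10 copies elsewhere: aagggtcatcatctctgccccctctgctga
LDHA, coding bases 397 to 426, 4 copies elsewhere: ttgcttattgtttcaaatccagtggatatc
TPI1, coding bases 191 to 220, 3 copies elsewhere: cgcagaactgctacaaagtgactaatgggg
GPI, coding bases 1 to 30, 0 copies elsewhere: atggccgctctcacccgggacccccagttc

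All 733 windows of PGAM1 had an exact copy elsewhere. In TPI1 67.1% of the windows were copied, in GAPDH 66.2% and in LDHA 49.4%. PGK1 (30.6%), PKM (21.9%), ENO1 (18.9%), LDHB (14.0%) and ALDOA (7.67%) had smaller shares, and GPI had none among 1645 windows. A second kind of sharing concerned genes that overlap on the same strand, since a read on exons of more than 1 gene is assigned to neither by STAR's gene counting. In GENCODE release 44 the exons of ENSG00000285043, annotated as protein-coding, covered 100% of the coding bases of ALDOA. The exons of ENSG00000285854 covered 93.5% of those of LDHB, and those of ENSG00000266953 covered 11.5% of GPI. The other coding sequences were free of a same-strand neighbour. On the opposite strand, exons of a long non-coding RNA lie over 21.8% of the coding bases of GAPDH, and that RNA had 0 counts in all libraries.

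**Figure D1:**
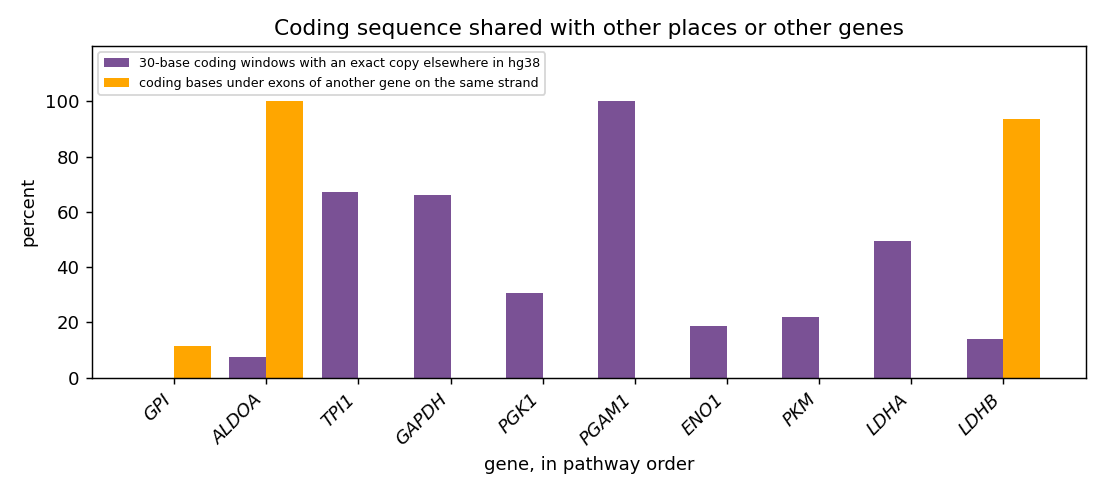
Share of each coding sequence (vertical axis, percent) found elsewhere, for the 10 genes in pathway order. Purple bars give 30-base windows with an exact copy elsewhere in hg38 and orange bars give coding bases under exons of another same-strand gene; PGAM1 reaches 100% in the first and ALDOA 100% and LDHB 93.5% in the second.

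The counts of the pseudogenes differed between the families. The 65 GAPDH pseudogenes together held between 2.21% and 5.57% of the counts of GAPDH, with GAPDHP1 the highest at 1050 and 1011 counts in the TRiC inputs, against 798 and 474 after pulldown. For LDHA, with 6 pseudogenes, the share was 2.34% to 4.50%, and for TPI1, with 4, it was 1.23% to 6.78%. The 2 ALDOA pseudogenes held 6.44% and 6.65% of the counts of ALDOA in the inputs of the TRiC line, 7.39% and 13.4% after pulldown, and at most 2.42% in the PFD line. The 3 LDHB pseudogenes held 1.46% to 5.99% and the 2 of PGK1 at most 1.14%. The 4 ENO1 pseudogenes held at most 0.0129% and the 5 of PKM at most 0.984%. The highest shares were those of PGAM1, whose 13 pseudogenes held between 34.1% of its counts in PFD input replicate 2 and 1000% in PFD pulldown replicate 1, that is 80 counts against 8.

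The levels differed widely between the genes, and the label of abundant genes held for 7 of the 10. In the TRiC inputs ENO1 ranked 6, PKM 7, GAPDH 19, LDHA 50, PGK1 125, GPI 154 and TPI1 456 among 17934 genes by CPM. ALDOA ranked 2486, LDHB 3596 and PGAM1 10052, although aldolase A and phosphoglycerate mutase 1 are abundant enzymes of most cells. These are the 3 genes whose coding sequence is almost wholly under another gene or wholly copied. The part of that sharing in their low counts was not tested. The overlapping genes themselves held few counts, at most 129 for ENSG00000285043 and 5 for ENSG00000285854.

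Per length of coding sequence (CPM per kb), ENO1 led the TRiC inputs at 3980 ± 47.3 (SD, n = 2). PKM followed at 3234 ± 52.2 (SD, n = 2), GAPDH at 2455 ± 50.9 (SD, n = 2) and LDHA at 1299 ± 4.79 (SD, n = 2). PGK1 stood at 643 ± 22.0 (SD, n = 2), TPI1 at 453 ± 9.60 (SD, n = 2) and GPI at 412 ± 6.89 (SD, n = 2) on the same scale. At the bottom were ALDOA at 70.3 ± 0.847 (SD, n = 2), LDHB at 60.4 ± 4.56 (SD, n = 2) and PGAM1 at 10.5 ± 1.40 (SD, n = 2). The replicate ranges of neighbours in this order did not overlap in the TRiC inputs. CPM per kb is taken over the whole coding length, whereas only uniquely aligned reads were counted. With 66.2% of the windows copied in GAPDH, 18.9% in ENO1 and 21.9% in PKM, this order need not be that of translation. The part of the copies in the order was not tested. The order in the PFD inputs was the same for the first 5 genes, from ENO1 at 3228 ± 26.7 (SD, n = 2) to PGK1 at 505 ± 10.2 (SD, n = 2). There GPI (334 ± 10.2 (SD, n = 2)) stood above TPI1 (287 ± 20.9 (SD, n = 2)), and LDHB and ALDOA had overlapping ranges. In the TRiC pulldowns the order was that of the TRiC inputs, with overlapping ranges of ALDOA and LDHB, and in the PFD pulldowns it was that of the PFD inputs. Lactate dehydrogenase was thus counted mostly as the A subunit gene in both lines. The lines are separate clones with a count table each, so that clone and table cannot be told apart in this order.

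**Figure D2:**
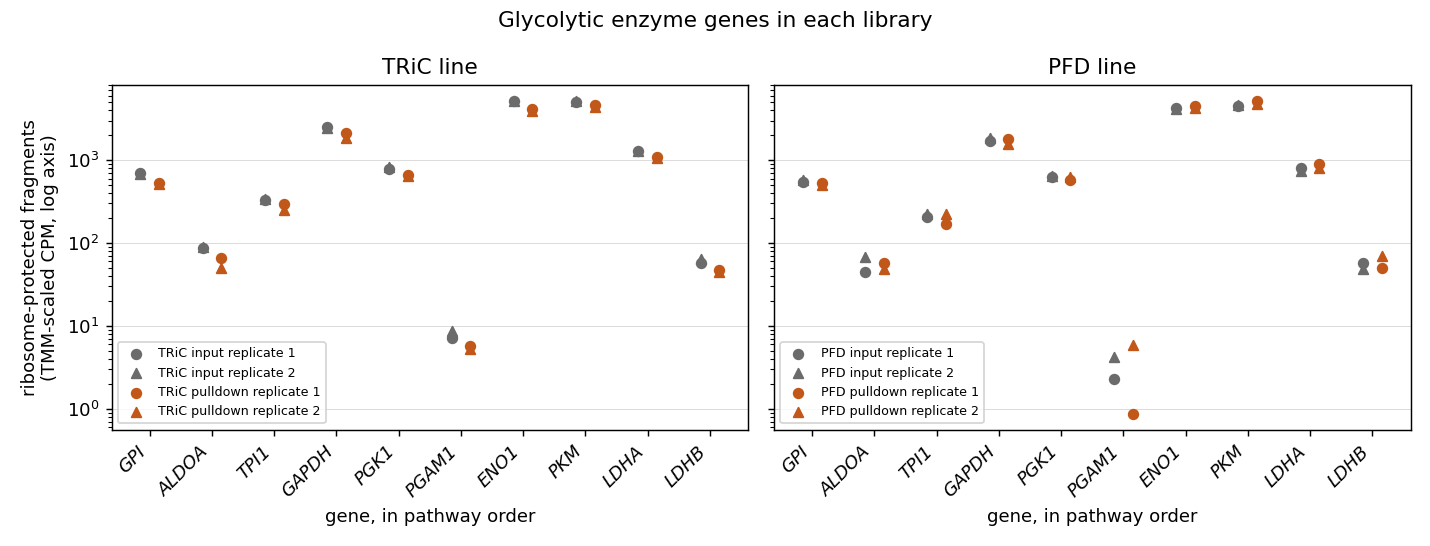
RPFs of each gene in each library (vertical axis, TMM-scaled CPM, log scale) for the TRiC line (left) and the PFD line (right), inputs in grey and pulldowns in orange, with circles for replicate 1 and triangles for replicate 2. Every TRiC pulldown point lies below both TRiC input points of its gene, and PGAM1 in the PFD line ranges from 0.862 to 5.86 CPM in the pulldowns alone.

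Together the 10 genes held 1.54% and 1.62% of all counts in the TRiC inputs, replicates 1 and 2. Their share was 1.39% and 1.27% in the TRiC pulldowns. In the PFD line the inputs held 1.28% and 1.31% and the pulldowns 1.35% and 1.29%. The TRiC pulldowns thus lay below both TRiC inputs, while the ranges of the PFD inputs and pulldowns overlapped. ENO1, PKM and GAPDH alone made up between 79.6% and 83.5% of the counts of the 10 genes in any library.

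In the TRiC pulldown 9 of the 10 genes had a significantly smaller share of RPFs than in the input, and none had a larger one. The log2 fold changes ran from −0.60 for ALDOA to −0.21 for PKM, with a median of −0.34, so that the share of ALDOA fell by 33.9% and that of PKM fell by 13.4%. A gene was called at an adjusted p-value under 0.05 from edgeR's quasi-likelihood test over 17934 genes, with CPM scaled by TMM, which centres most genes on no change. Among all genes tested 10.6% were called lower and 8.64% higher, and the median log2 fold change was −0.003. Abundant genes as a class were lower in this pulldown, since 33.5% of the 2212 genes with a mean of at least 100 CPM over the 8 libraries were called lower, 7.91% higher, and their median was −0.14. All 10 glycolytic genes had both pulldown libraries below both inputs, against 31.2% of all genes and 59.9% of those with at least 100 CPM. Under cyclic loess with limma-trend, which differs in both scaling and test, 3 of the genes were called lower (ALDOA, LDHB and GPI). That fit called 1433 of all 17934 genes lower and 17.9% of those with at least 100 CPM. Of the 3 only GPI belongs to that class, since ALDOA and LDHB were under 100 CPM in every library. The median of the 10 was then −0.18, that of the abundant genes −0.032, and PKM was at 0.013.

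**Figure D3:**
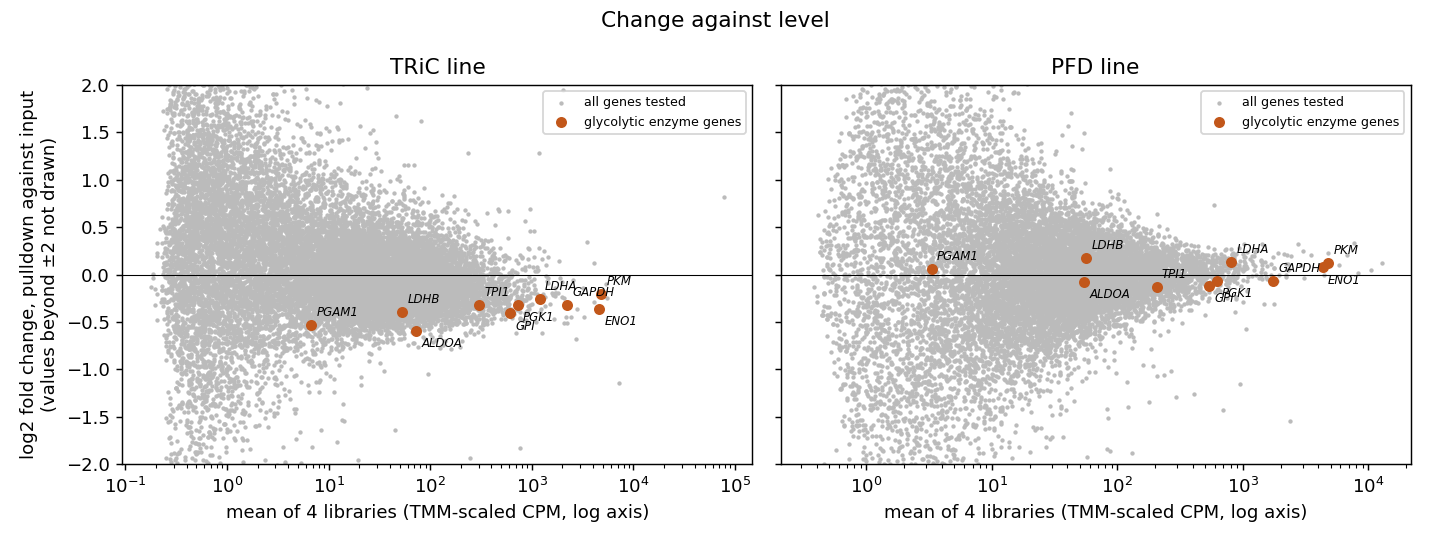
Log2 fold change of pulldown against input (vertical axis) against the mean level of 4 libraries (horizontal axis, TMM-scaled CPM, log scale) for all genes tested (grey) and the 10 glycolytic genes (orange, named), TRiC line left and PFD line right. In the TRiC line all 10 lie below 0, within a cloud that drops below 0 at high levels, and in the PFD line 5 lie on each side of 0.

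In the upper part of the pathway, the enzymes that prepare and split the sugar, GPI interconverts glucose phosphate and fructose phosphate. GPI (ENSG00000105220, chromosome 19, 34359480 to 34402413 of hg38, plus strand, 18 exons) had 699 and 682 CPM in the TRiC inputs, against 530 and 510 CPM after pulldown. The pulldowns lay clearly below the inputs, and the replicates of each group were close. Its log2 fold change was −0.41 (standard error, SE, 0.06, edgeR adjusted p = 0.000404). It remained lower under cyclic loess (−0.26), and it is also the gene with no copied window. ALDOA (ENSG00000149925, chromosome 16, 30064164 to 30070457, plus strand), which splits fructose bisphosphate into triose phosphates, had 87.4 and 88.9 CPM as input and 66.2 and 50.0 CPM after pulldown. Both pulldowns were lower, replicate 2 by more, in a gene whose coding bases lie wholly under a same-strand neighbour. The log2 fold change was −0.60 (SE 0.11, edgeR adjusted p = 0.00146), and −0.40 without TRiC pulldown replicate 2. TPI1 (ENSG00000111669, chromosome 12, 6867119 to 6870948, plus strand), which interconverts the triose phosphates, went from 333 and 343 CPM to 292 and 249 CPM. The groups did not overlap, with replicate 2 again the lower pulldown. Its log2 fold change was −0.32 (SE 0.08, edgeR adjusted p = 0.00910). The call was lost without TRiC pulldown replicate 2 (−0.20, edgeR adjusted p = 0.0524).

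In the lower part, which harvests ATP, GAPDH oxidizes glyceraldehyde phosphate and reduces NAD+. GAPDH (ENSG00000111640, chromosome 12, 6534512 to 6538374, plus strand) had 2503 and 2431 CPM in the TRiC inputs, against 2095 and 1858 CPM after pulldown. Its log2 fold change was −0.32 (SE 0.06, edgeR adjusted p = 0.00251). PGK1, on chromosome X (ENSG00000102144, 77910739 to 78129295, plus strand), makes the first ATP of the pathway. It went from 785 and 824 CPM to 655 and 636 CPM, a log2 fold change of −0.32 (SE 0.06, edgeR adjusted p = 0.00251). GAPDH thus fell by 19.9% and PGK1 fell by 19.7%, each with both pulldowns below both inputs. PGAM1 (ENSG00000171314, chromosome 10, 97426191 to 97433444, plus strand), which shifts the phosphate group within phosphoglycerate, had 200 and 264 counts as input and 191 and 133 after pulldown. These correspond to 7.21 and 8.72 CPM against 5.73 and 5.28 CPM. PGAM1 was the gene without a call, at −0.53 (SE 0.22, edgeR adjusted p = 0.101), and its 13 pseudogenes together held between 43.6% and 72.9% of its own counts in the TRiC libraries.

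ENO1 and PKM, the genes with the most counts among the 10, carry out the final steps to pyruvate. ENO1 (ENSG00000074800, chromosome 1, 8861000 to 8879190, minus strand), which forms phosphoenolpyruvate, had 5138 and 5225 CPM in the TRiC inputs, against 4193 and 3882 CPM after pulldown. Its log2 fold change was −0.36 (SE 0.06, edgeR adjusted p = 0.000406). PKM (ENSG00000067225, chromosome 15, 72199029 to 72231819, minus strand) encodes the pyruvate kinases M1 and M2, which differ by alternative exons and are not separated by gene counts. Its levels were 5094 and 5211 CPM as input and 4605 and 4315 CPM after pulldown, a log2 fold change of −0.21 (SE 0.06, edgeR adjusted p = 0.0145). Of the called genes PKM changed least, and it kept no call under library totals (−0.16), with a minimum of 100 counts per library (−0.14) or without either TRiC input (−0.22 and −0.20). For both genes each pulldown was below each input.

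Lactate dehydrogenase is a tetramer of A and B subunits, encoded by LDHA and LDHB. LDHA (ENSG00000134333, chromosome 11, 18394560 to 18408425, plus strand) had 1297 and 1291 CPM in the TRiC inputs, against 1102 and 1068 CPM after pulldown. Its log2 fold change was −0.25 (SE 0.06, edgeR adjusted p = 0.00741). LDHB (ENSG00000111716, chromosome 12, 21635342 to 21757857, minus strand) had 57.3 and 63.7 CPM as input and 47.6 and 44.2 CPM after pulldown, at −0.40 (SE 0.10, edgeR adjusted p = 0.00987). Both subunit genes were lower in each pulldown than in each input. LDHA was not called with library totals (−0.21) or without TRiC input replicate 1 (−0.25) or 2 (−0.27).

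Leaving out a library moved the median log2 fold change of the 10 in the TRiC pulldown between −0.44 and −0.29. All 10 stayed below 0 each time. Without TRiC input replicate 2, LDHA was at −0.27, LDHB at −0.33, PGK1 at −0.29 and TPI1 at −0.31. None of the 10 was called against a change of at least 1.5-fold, and none with all 8 libraries in 1 fit, which shares the wider spread of the PFD libraries. Calls were rare for any gene in both fits. The first called 64 of 17934 genes lower and 0.54% of those with at least 100 CPM. The second called 15 of 18855 genes lower and 0.59% of those with at least 100 CPM. Leaving out a library leaves 1 in its group. Some of the 9 calls were then lost, and the share of the genes with at least 100 CPM called lower moved too. With DESeq2 the same 9 genes were called lower, as were 33.1% of the genes with at least 100 CPM. Neither tool called any of the 10 higher.

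In the PFD pulldown no glycolytic gene differed significantly from the input. The log2 fold changes lay between −0.13 for TPI1 and 0.18 for LDHB, 5 above and 5 below 0, with a median of −0.0044. By edgeR none of the 10 was called in either direction, none had an unadjusted p-value under 0.05, and DESeq2 and cyclic loess called none as well. In this comparison 0.0496% of all 14111 genes tested were called higher and 0.191% lower, so that calls were rare for any gene, and 6.93% had an unadjusted p-value under 0.05. The median of the 2212 genes with at least 100 CPM was 0.02.

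**Figure D4:**
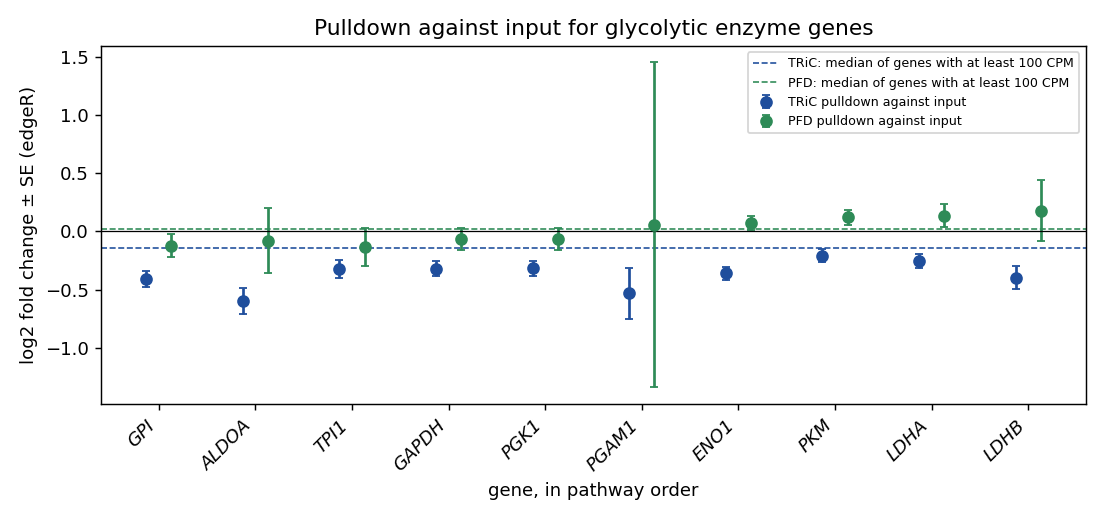
Log2 fold change with its standard error (vertical axis, edgeR) for the 10 genes in pathway order, TRiC pulldown in blue and PFD pulldown in green, with dashed lines at the median of genes with at least 100 CPM (−0.14 and 0.02). TRiC values run from −0.60 to −0.21, PFD values from −0.13 to 0.18, and the standard error of PGAM1 in the PFD line is 1.40.

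The genes with the most counts were measured closely in the PFD line too. PKM had 4500 and 4655 CPM in the PFD inputs, against 5167 and 4792 CPM after pulldown. ENO1 had 4228 and 4179 CPM as input and 4560 and 4299 CPM after pulldown. For both genes each pulldown was above each input, a pattern of 18.3% of all genes and 24.2% of those with at least 100 CPM, and the log2 fold changes were 0.12 (SE 0.06, edgeR adjusted p = 0.783) for PKM and 0.08 (SE 0.06, edgeR adjusted p = 0.905) for ENO1. PKM was called higher without PFD pulldown replicate 2 (0.17, edgeR adjusted p = 0.00291), a fit that called 1081 of 15452 genes higher, and ENO1 was at −0.012 under cyclic loess. GPI was the reverse case, with 547 and 571 CPM as input and 526 and 501 CPM after pulldown, a log2 fold change of −0.12 (SE 0.10, edgeR adjusted p = 0.900). Both GPI pulldowns lay below both inputs, as for 20.4% of all genes and 18.0% of those with at least 100 CPM.

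The other 7 genes had overlapping groups in the PFD line. GAPDH had 1709 and 1828 CPM as input and 1823 and 1558 CPM after pulldown, so that the first pulldown lay between the inputs and the second lay below them. Its log2 fold change was −0.07 (SE 0.09, edgeR adjusted p = 0.963) and 0.039 without PFD pulldown replicate 2. LDHA had 802 and 741 CPM as input and 898 and 795 CPM after pulldown, at 0.13 (SE 0.10, edgeR adjusted p = 0.888). For LDHA the second pulldown lay between the inputs and the first lay above them. PGK1 had 623 and 641 CPM as input and 582 and 624 CPM after pulldown, at −0.068. TPI1 had 204 and 226 CPM as input and 169 and 222 CPM after pulldown, at −0.13, and moved to 0.046 without PFD pulldown replicate 1. In both of these genes the first pulldown was the lowest library and the second lay between the inputs. LDHB had 56.7 and 48.5 CPM as input and 49.7 and 69.2 CPM after pulldown, at 0.18, and moved to −0.088 without PFD pulldown replicate 2. ALDOA had 44.6 and 67.3 CPM as input and 57.9 and 48.0 CPM after pulldown, both between the inputs, at −0.08. It moved to 0.23 without PFD input replicate 2 and to 0.050 without PFD pulldown replicate 2. PGAM1 had 44 and 44 counts as input and 8 and 167 after pulldown, so its value of 0.06 (SE 1.40) gives no direction. Leaving out PFD pulldown replicate 2 gave −1.91, and leaving out PFD input replicate 1 gave −0.33.

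The difference between the enrichments was tested as an interaction over all 8 libraries. For all 10 genes the TRiC value lay below the PFD value, with differences between −0.63 for PGAM1 and −0.18 for TPI1 and a median of −0.34. Over the 2212 genes with at least 100 CPM the median difference was −0.13, and 65.7% of them were below 0. Over all 18855 genes the median was −0.006, and 50.3% were below 0. None of the 10 passed the threshold in edgeR, where 0.0159% of all genes were called lower and 0.0212% higher. The 4 genes PKM, LDHA, ENO1 and GPI had an unadjusted p-value under 0.05, against 14.8% of all genes and 26.6% of those with at least 100 CPM. ENO1 differed by −0.42 (SE 0.09, edgeR adjusted p = 0.167), LDHA by −0.37 (SE 0.11, edgeR adjusted p = 0.215) and PKM by −0.32 (SE 0.09, edgeR adjusted p = 0.209). GPI, with both pulldowns below both inputs in each line but no call in the PFD line, differed by −0.27 (SE 0.10, edgeR adjusted p = 0.277). DESeq2 called these same 4 genes lower, along with 11.9% of the genes with at least 100 CPM. Under cyclic loess the differences were smaller, at −0.13 for ENO1, −0.19 for LDHA, −0.12 for GPI and −0.016 for PKM, and none was called. Without PFD pulldown replicate 1, ENO1, PKM and LDHB (−0.81) were called lower, as were 8.54% of the genes with at least 100 CPM. Without PFD pulldown replicate 2, ENO1, PKM and LDHA were called lower, as were 14.8% of those genes, while TPI1 (0.094) and PGAM1 (1.43) changed sign.

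The rest of sugar metabolism was read from lists of other pathway genes, each described by its counts, beside the 10.6% of all genes and 33.5% of those with at least 100 CPM called lower in the TRiC pulldown. Of 22 further glycolytic genes, mostly tissue-specific isozymes, 14 were tested in the TRiC line, and 2 were lower in the TRiC pulldown. They were HK1, the most abundant of the list (−0.35, from 311 ± 3.16 (SD, n = 2) to 244 ± 6.72 CPM (SD, n = 2)), which phosphorylates glucose, and the phosphofructokinase gene PFKM (−0.24). The list's median was −0.17. Its PFD median was 0.07 over 11 genes tested, with no call. The close PGAM1 relative PGAM4 had at most 10 counts in any library.

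All 7 genes of the pentose phosphate pathway, which branches off at glucose phosphate and supplies NADPH and ribose, were below 0 in the TRiC pulldown, with a median of −0.35. Of these, 4 were called lower, among them TALDO1 (−0.40), TKT (−0.40) and PGD (−0.35). TKT, the transketolase gene and the most abundant, had 471 ± 3.34 CPM as input (SD, n = 2) and 356 ± 25.2 CPM after pulldown (SD, n = 2). In the PFD pulldown 5 of the 7 were above 0 and none was called.

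Among 11 genes of sugar and lactate transport and of the PFKFB regulators, the only call was BSG, the chaperone of the lactate transporters, at −0.41. It fell from 747 ± 21.8 (SD, n = 2) to 563 ± 60.0 CPM (SD, n = 2), whereas 7 of the list were above 0 and the median was 0.07. Of 11 genes in branches from glycolysis 4 were lower, near the share of the abundant genes, namely PHGDH, the entry to serine synthesis (−0.36), GOT1 (−0.33), PGM1 (−0.29) and MDH1 (−0.26). Of 20 genes for mitochondrial pyruvate use and the citric acid cycle 6 were lower, a share also near that of the abundant genes, and none was higher, with a median of −0.18. The succinate dehydrogenase subunit SDHB (−0.43), malate dehydrogenase MDH2 (−0.42), SUCLG1 (−0.35) and IDH3B (−0.31) changed most, and CS (−0.27) and OGDH (−0.24) were the other calls. By edgeR no gene of these lists was called in the PFD pulldown, and cyclic loess called none either. Outside the naming rule, SDHB (−0.47) and PGLS (−2.45) were among the genes that had an unadjusted p-value under 0.05 there and were called lower by DESeq2. DESeq2 called 295 of all 14111 genes lower in that pulldown. PGLS had few counts, 248 and 172 in the PFD inputs against 10 and 119 after pulldown.

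Genes of other functions had a similar profile. Over the 8 libraries, with log2 CPM centred within each line, the 2212 genes with at least 100 CPM were ranked by Euclidean distance from the median profile of the 10 glycolytic genes. The nearest outside genes were PRDX3, a mitochondrial peroxidase (distance 0.0706), the receptor gene TNFRSF12A (0.0836), TIMP1, a secreted inhibitor of metalloproteinases (0.0900), the G protein subunit gene GNB1 (0.0985) and PARP1 (0.0997). The glycolytic genes themselves lay between 0.133 (ENO1) and 1.69 (PGAM1) from their median. That these 5 genes were closer to it follows from their being picked as the nearest, whereas the 10 were not picked by distance. The log2 fold changes of the 5 genes come from the same libraries that picked them. They were between −0.38 and −0.26 in the TRiC and between −0.04 and 0.03 in the PFD pulldown.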

How the data were processed

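The deposited values are raw counts of unique reads per gene, 1 table for each tagged line, which the authors made by trimming and demultiplexing with an awk script, UMI extraction with UMI-tools, removal of non-coding RNA reads with Bowtie2 2.4.2 and mapping to hg38 with STAR 2.7.10a. The annotation release and the counted strand are not given in the sources used here. Of the identifiers, 60463 matched GENCODE release 44, the source of names, coordinates, coding lengths and overlaps, and 201 did not. Pulldown and input were compared within each line in R 4.3.3 by edgeR 4.0.16 (TMM, filterByExpr, glmQLFit, glmQLFTest, Benjamini-Hochberg over all genes tested), and the difference in a fit of all 8 libraries. Alternatives were DESeq2 1.42.0, library totals, cyclic loess with limma 3.58.1, other count filters, glmTreat, a replicate block, 1 fit of all libraries and leaving out each library. The SEs are not given by edgeR's test and were taken as the absolute log2 fold change over the square root of its F statistic. The scripts were tested on simulated data.

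Members and gene lists were chosen with earlier results of these data known. All 10 members are named. From the other lists the text names the most abundant gene by input CPM and up to 4 called genes with the largest change per list and pulldown; CS, OGDH, PGAM4 and PGLS and the bone-lineage genes were picked outside this rule, with their values in view. Some genes of these lists are not reported here by name. For likeness, 0.5 was added to CPM before the log. Window copies are exact matches on the main chromosomes and do not allow the mismatches that the mapping allowed. The study's own test is positional along each coding sequence and could not be run on gene totals, and a bound stretch may leave a gene's total unchanged. P-values rest on the spread of 2 replicates per group, which the study calls biological. The edgeR dispersions behind them are also estimated in part across genes. Counting error is small at the counts of the leading genes, and PGAM1 had the lowest counts of the 10.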

Additional observations from a re-analysis of the deposited data

How the results depend on the processing

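In the TRiC pulldown no alternative called a glycolytic gene higher. The count of 9 lower genes became 3 with cyclic loess and 0 both against a 1.5-fold change and with all 8 libraries in 1 fit, and ranged from 4 to 9 when a library was left out. Their median of −0.34 became −0.18 with cyclic loess and ranged from −0.44 to −0.29 without a library, and PKM turned to 0.013 with cyclic loess. In the PFD pulldown the count of lower genes stayed at 0 and that of higher genes was 0 to 1 without a library (PKM). The PFD median of −0.0044 became −0.072 with at least 100 counts in every library, which removes PGAM1, and ranged from −0.11 to 0.056 without a library. Signs in the PFD pulldown turned for ENO1 (−0.012) and PGAM1 (−0.023) with cyclic loess. Without a library GAPDH ranged from −0.19 to 0.039, LDHB from −0.088 to 0.39, ALDOA from −0.36 to 0.23, TPI1 from −0.35 to 0.046 and PGAM1 from −1.91 to 0.85. For the difference between the enrichments, 4 genes were lower with DESeq2 and 2 (ENO1 and PKM) with no filter on low counts, against 0 as designed. The fit with no filter called 298 of 37463 genes lower. It called 5.88% of those with at least 100 CPM lower, against 0.09% as designed. The median difference of −0.34 became −0.13 with cyclic loess and ranged from −0.39 to −0.27 without a library. Without a library TPI1 ranged from −0.40 to 0.094 and PGAM1 from −1.43 to 1.43, with the positive values without PFD pulldown replicate 2. The cause of these shifts was not tested.

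Same-numbered pulldown and input deviated together with a correlation of 0.202 across genes for TRiC and −0.0216 for PFD, and nothing states that the numbers pair the libraries. With a replicate block the same 9 genes were lower in the TRiC pulldown (median −0.34). That fit called 2652 of 17934 genes lower and 45.5% of those with at least 100 CPM, against 33.5% as designed. With the block the PFD median was −0.064 with PGAM1 at −0.44, and the median difference was −0.29 with no call.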
